A study of Mus musculus with 7 samples.

Results

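Single activated spleen T cells were read at day 7 of infection with lymphocytic choriomeningitis virus (LCMV, Armstrong strain), and the cells described here are the helper T cells among them that carried RNA of the follicle-homing receptor Cxcr5. A barcode counted as a cell from 500 genes up, if no more than 10% of its counts were mitochondrial. Members were chosen by 5 transcripts. A cell was a member when it held at least 1 count of Cd4, none of Cd8a or Cd8b1, at least 1 of Cxcr5 and none of Cxcr6, a chemokine receptor of Th1-type effector cells. By this rule 352 of 7022 cells of replicate 1 and 130 of 2193 cells of replicate 2 were members, 482 of 9215 cells in both libraries and of 16427 in the whole study. They are called Cxcr5+ Cxcr6- cells below. The remaining 1140 and 433 cells with a Cd4 count and no Cd8a or Cd8b1 count are called the other CD4 cells.

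Both total libraries came from wild type C57bl/6 mice, whose CD44high CD4+ and CD8+ spleen T cells were sorted apart and joined in equal parts before capture, so the cells were activated but of any specificity. For comparison, 2 libraries of the same day held cells that bound tetramers of I-Ab, a class II molecule, loaded with the viral peptide GP66, and hence of 1 specificity. The first came from wild type mice with a CD4+ gate. The other came from Ox40-Cre+ Thpokwt/wt RosaYFP+ mice, where Cre under the promoter of Ox40, a gene of activated T cells, switches on a yellow reporter; only reporter-positive cells were sorted, and both Thpok alleles are intact. The 3 remaining libraries of the study, with Thpok deleted (Thpokfl/fl) or from day 30, enter only where named. How many animals gave each library is not stated, so the spread behind each p-value is that between libraries, whether biological or technical.

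Follicular helper T (Tfh) cells are the helper cells that move towards the B cell follicle, drawn by CXCL13, the ligand of CXCR5. There they give B cells contact signals and cytokines such as interleukin 21 that drive germinal centres and antibody responses. In acute LCMV infection activated CD4 cells split between this fate, for which the repressor Bcl6 is required, and a Th1 fate that depends on the transcription factor T-bet (Tbx21) and carries CXCR6, granzyme B and inflammatory chemokine receptors.

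Depth and purity differed between the 2 total libraries. Their cells held 33223809 and 12172319 unique molecular identifiers (UMIs, the counted molecules), and the median Cxcr5+ Cxcr6- cell held 4975 in replicate 1 and 5274.5 in replicate 2, against 3935.5 and 5008 in the other CD4 cells. Replicate 1 stood apart in sex-linked RNA. Its CD4 cells held Xist at 1065 CPM (a gene's share of the summed UMIs of the class) and no UMI of the Y-linked Ddx3y. Those of replicate 2 held no Xist UMI and Ddx3y at 49.9 CPM, and the GP66+ libraries at most 1 Xist UMI. Of the barcodes kept, 24 were shared between the total libraries, where draws at random would give 20.8. Replicate 1 shared 26 with the wild type and 17 with the Thpok-sufficient GP66+ library (21.5 and 20.5 at random). Replicate 2 shared 4 and 15 with them (6.7 and 6.4 at random), the last above the random count. In replicate 1 a single Cxcr5+ Cxcr6- cell held 1599 of the class's 1626 haemoglobin UMIs, and 7 of 352 such cells held at least 10 UMIs of red cell, myeloid or B cell genes, against 19 of 1140 other CD4 cells. In replicate 2 these were 0 of 130 and 3 of 433.

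The label of these cells was checked with the markers Izumo1r and Il21, and they did not behave alike. Izumo1r encodes folate receptor 4, a surface protein of Tfh and regulatory T cells. With each cell thinned to 2000 UMIs, it was seen in 39.6% and 27.8% of Cxcr5+ Cxcr6- cells in replicates 1 and 2 (62.5% and 43.1% without thinning), and in 31.6% and 20% of the other CD4 cells (41.9% and 31.4%). Thinning left out 6 and 4 cells of the first class and 93 and 28 of the second as too shallow. Cells holding Cd8a or Cd8b1 RNA but none of Cd4 should lack the gene. They had median depths of 4182 and 5252 UMIs and showed 2.93% and 1.32%, below both classes of CD4 cells. These cells were chosen to hold no Cd4 UMI, and the part of free RNA in Izumo1r was not tested.

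Il21 was much rarer and separated the classes more. After thinning it was seen in 4.91% and 7.14% of Cxcr5+ Cxcr6- cells (12.2% and 13.1% unthinned) against 1.05% and 0.988% of the other CD4 cells (2.02% and 3.46%) and 0.114% and 0.0946% of the Cd8+ cells. Pdcd1, the receptor PD-1 that is high on Tfh cells, was seen in 35.5% and 38.1% of thinned Cxcr5+ Cxcr6- cells, against 14.9% and 23.5% of the other CD4 cells. Bcl6 was at the edge of detection, with a UMI in 19 of 352 and 4 of 130 Cxcr5+ Cxcr6- cells. Izumo1r alone therefore did not mark these cells off from the rest. Cxcr5 was set by the rule, so the name follicular helper rests here on Il21, Pdcd1 and the genes described below.

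Cxcr5+ Cxcr6- cells made up about the same share of CD4 cells in both total libraries. The share was 23.6% in replicate 1 (exact binomial 95% interval 21.5 to 25.8, 352 of 1492) and 23.1% in replicate 2 (19.7 to 26.8, 130 of 563). Of the 3 capture wells of replicate 1, the first gave 26.2% (90 of 343), the second 25.1% (106 of 423) and the third 21.5% (156 of 726), with intervals that overlapped. In the GP66+ libraries the same rule took 31.4% (29.1 to 33.8, 474 of 1508) of wild type and 26.3% (23.9 to 28.7, 348 of 1324) of Thpok-sufficient cells.

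The mean share was 5.52 percentage points lower in the total than in the GP66+ libraries, 23.3% against 28.9%. An exact two-sided permutation test over these 4 libraries gave p = 0.333, the smallest it can give. With cells thinned to 2000 UMIs the means were 12.9% and 14.2% (exact permutation p = 0.667). In the GP66+ libraries with Thpok deleted the rule found 14 of 405 cells at day 7 (3.46%) and 5 of 177 at day 30 (2.82%), and in the Thpok-sufficient library of day 30 it found 22 of 212 (10.4%). Intervals cover counting error only. The cells of day 30 were shallower, with a median of 2017 UMIs in the Thpok-sufficient library against 5276 in that of day 7. With cells thinned to 2000 UMIs the share of the day 7 Thpok-sufficient library was 12.9%. The part of depth in the day 30 shares was not tested.

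**Figure D1:**
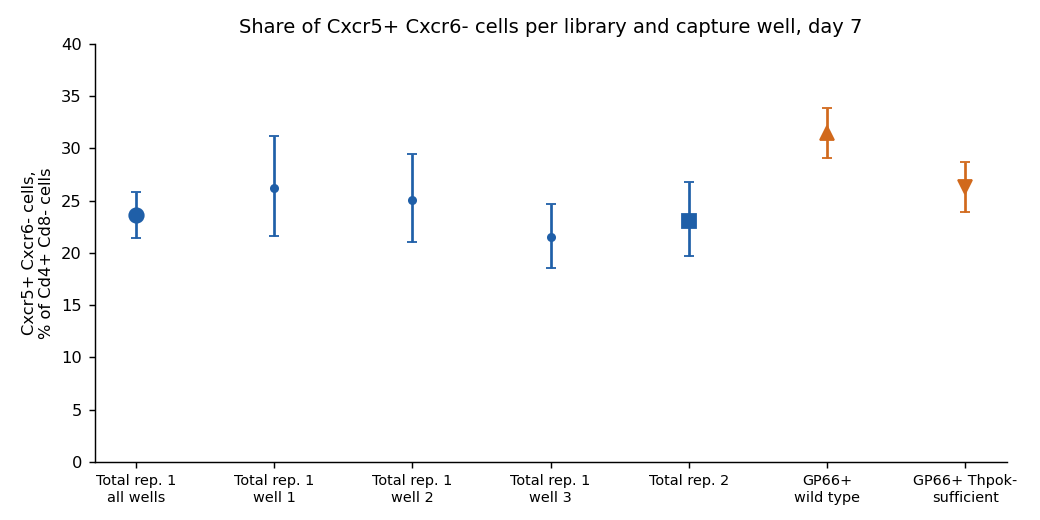
Share of Cxcr5+ Cxcr6- cells among Cd4+ Cd8- cells (vertical axis, percent) in each day 7 library and, for replicate 1 of the total cells, in each capture well; bars are exact binomial 95% intervals. The total libraries stand at 23.6% and 23.1%, and the GP66+ libraries at 31.4% and 26.3%.

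The rule draws a sharp line through a graded signal, and the values on either side of it are given as a description. In replicate 1, Pdcd1 stood at 236, 318 and 509 CPM in Cxcr5+ Cxcr6- cells with 1, 2 and at least 3 Cxcr5 UMIs (210, 86 and 56 cells), and at 97.0 CPM in the 799 CD4 cells with neither receptor. In replicate 2 the values were 253, 268 and 528 CPM (92, 27 and 11 cells) and 158 CPM (269 cells). Both libraries thus held the most Pdcd1 in the cells richest in Cxcr5. Cells just outside the line, with Cxcr5 and a single Cxcr6 UMI, held Pdcd1 at 416 CPM (40 cells) and 277 CPM (11 cells). For Izumo1r the libraries differed. In replicate 1 it held 398, 406 and 530 CPM by Cxcr5 UMIs and 402 CPM in cells with neither receptor, a rise only at 3 or more Cxcr5 UMIs. In replicate 2 it held 251, 301 and 184 CPM and 274 CPM, with no such rise.

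Within the total libraries, Cxcr5+ Cxcr6- cells carried more RNA of some Tfh surface receptors and Tfh-associated transcription factors, and of 5 of 8 B cell help genes, than the other CD4 cells did. They carried less of most cytotoxic genes tested and of 16 of 28 Th1 genes. UMIs were summed per library and class, and the classes were compared with edgeR with the library as block, since both came from 1 capture. Of 9497 genes tested, 113 were higher (1.19%) and 176 lower (1.85%) at an adjusted p under 0.05. The classes did not overlap across the 2 libraries in 15.8% (higher) and 18.1% (lower) of all genes. Genes that travel with Cxcr5 or Cxcr6 in single cells are bound to differ between classes cut on those receptors; Cxcr5, Cxcr6, Cd4, Cd8a and Cd8b1 themselves are no result. Without replicate 1 the counts were 84 and 144, and without replicate 2 they were 244 and 315. With 1 total library left, that library is fitted exactly, so the p-values of such fits rest on spread between the GP66+ libraries alone. With all cells thinned to 2000 UMIs, which discards many of the molecules, the counts were 11 and 30. The classes were then drawn anew from the thinned counts, which left 122 and 40 Cxcr5+ Cxcr6- cells. The marker shares above keep the classes of the full counts.

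Among Tfh surface proteins and receptors, 5 of 17 genes tested were higher and none lower, with a median log2 fold change of 0.46 against 0.004 over all genes tested. Pdcd1 (ENSMUSG00000026285; chromosome 1, 94038305 to 94052553, minus strand, GRCm38) stood out. It held 310 CPM in replicate 1 and 288 CPM in replicate 2 in Cxcr5+ Cxcr6- cells, against 110 and 152 CPM in the other CD4 cells. Both libraries showed it higher with no overlap (log2 fold change 1.27, SE 0.116, adjusted p = 6.44e-06).

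The other 4 rose by less than 1.5-fold. Icos, the costimulatory receptor needed for Tfh formation, held 370 and 439 CPM against 278 and 349 CPM (log2 fold change 0.38, adjusted p = 0.0255). Slamf6, a receptor of the SLAM family through which T and B cells adhere, held 580 and 727 CPM against 497 and 427 CPM (0.47, adjusted p = 0.0222). Cd200, an inhibitory surface ligand, held 94.3 and 74.1 CPM against 62.2 and 57.5 CPM (0.53, adjusted p = 0.0309). For these 3 genes both libraries of Cxcr5+ Cxcr6- cells lay above both of the other CD4 cells.

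Izumo1r (ENSMUSG00000031933; chromosome 9, 14885814 to 14903949, minus strand) held 426 and 254 CPM in Cxcr5+ Cxcr6- cells against 318 and 176 CPM in the other CD4 cells. It was higher within each library (0.46, adjusted p = 0.0157), although replicate 2 of the first class lay below replicate 1 of the second. Without replicate 1, the calls of Icos (log2 fold change 0.33, adjusted p = 0.242), Izumo1r (0.53, adjusted p = 0.117) and Cd200 (0.37, adjusted p = 0.518) ended, with folds in the same direction. Those of Icos and Cd200 also ended without either GP66+ library (0.0649 and 0.0725 without the wild type, 0.0761 and 0.089 without the Thpok-sufficient one), which share the fit's estimate of spread.

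The remaining 12 did not pass. Il6st, the signalling chain of the interleukin 6 receptor, held 41.4 and 36.3 CPM against 26.7 and 22.1 CPM (log2 fold change 0.66, adjusted p = 0.0763). P2rx7, an ATP-gated channel that limits Tfh cells in the gut, held 60.9 and 54.5 CPM against 44.5 and 26.4 CPM (0.61, adjusted p = 0.0672). Btla, an inhibitory receptor for HVEM on B cells, held 53.9 and 54.5 CPM against 36.4 and 42.1 CPM (0.50, adjusted p = 0.108). All 3 were higher in both libraries, without overlap between the classes, and P2rx7 passed without either GP66+ library (adjusted p = 0.0446 without the wild type, 0.0403 without the Thpok-sufficient one).

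Cd28, the main costimulatory receptor (0.02), Tnfrsf4, which encodes Ox40 (-0.002), Gpr183, an oxysterol receptor for positioning at the follicle's edge (0.07), and Il21r, the receptor for interleukin 21 (0.08), had log2 fold changes near 0. S1pr2, which holds cells in germinal centres, was scarce at 11 and 14.0 CPM against 9.49 and 3.83 CPM (0.61, adjusted p = 0.555).

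Among transcription factors linked to Tfh cells, 6 of 18 tested were higher and none lower (median log2 fold change 0.33). Tox2, an HMG-box factor that opens chromatin at Tfh genes, held 94.3 and 78.3 CPM in Cxcr5+ Cxcr6- cells against 38.3 and 32.8 CPM in the other CD4 cells (1.28, SE 0.135, adjusted p = 2.49e-05). Its relative Tox held 230 and 189 CPM against 127 and 117 CPM (0.80, adjusted p = 0.00017). The classes did not overlap for either gene.

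Tcf7 encodes TCF-1, which promotes Bcl6 and restrains Th1 differentiation. It held 512 and 664 CPM against 336 and 358 CPM (log2 fold change 0.74, SE 0.087, adjusted p = 9.68e-05). Id3, an inhibitor of E proteins that stays high in Tfh and memory precursor cells, held 397 and 319 CPM against 248 and 160 CPM (0.80, SE 0.098, adjusted p = 0.000142). Hif1a, the oxygen-sensing factor, held 185 and 361 CPM against 115 and 239 CPM (0.65, adjusted p = 0.000425). Replicate 2 of Hif1a was the higher library in both classes, so its groups overlapped across libraries and differed within each, while Tcf7 and Id3 did not overlap.

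Pou2af1, a coactivator best known in B cells, held 32.4 and 12.6 CPM against 12 and 10.6 CPM (1.17, adjusted p = 0.0226), and without replicate 1 the log2 fold change was 0.24 (adjusted p = 0.899). Markers of B cells moved in the same library. In replicate 1 at least 1 of 6 B cell markers was seen in 47 of 352 Cxcr5+ Cxcr6- and 59 of 1140 other CD4 cells, in replicate 2 in 6 of 130 and 18 of 433. Summed over the list of 10, these genes stood at 467 and 19.6 CPM in Cxcr5+ Cxcr6- cells and 364 and 48.1 CPM in the other CD4 cells. Their part in Pou2af1 was not tested.

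Bcl6 (ENSMUSG00000022508; chromosome 16, 23965052 to 23988852, minus strand) was too scarce to pass. It held 9.48 and 5.59 CPM in Cxcr5+ Cxcr6- cells against 3.87 and 2.55 CPM in the other CD4 cells, higher in both libraries (log2 fold change 1.25, SE 0.406, adjusted p = 0.145). Ascl2, a basic helix-loop-helix factor that can switch on Cxcr5, held 21.5 and 5.59 CPM against 8.33 and 6.38 CPM (1.08, adjusted p = 0.132), and without replicate 1 its log2 fold change was -0.19. Maf, a factor that drives Il21 and Il4, held 258 and 115 CPM against 165 and 137 CPM (0.38, adjusted p = 0.235), and without replicate 1 it was -0.26. Ascl2 and Maf were thus higher in replicate 1 and lower in replicate 2, with log2 fold changes of 1.35 and 0.63 without replicate 2.

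Id2 and Id3 act on E proteins, which bind short DNA words called E-boxes, and Ascl2 binds such words too. Because Id3 was higher and Id2, described below, lower in these cells, the promoters of the genes named were searched for the E-box CAGCTG, which reads the same on both strands. Windows ran from 250 bases before to 50 after each RefSeq transcript start (GRCm38.p6). The site nearest the start in Angptl2, the first of 2 in Hif1a, the site in 1 of 2 Tcf7 windows and the one in Id2 are shown with the motif in capitals.
Angptl2, chr2:33215903-33215932, plus strand: gaggggctgggcCAGCTGgggctggagcta
Hif1a, chr12:73907743-73907772, plus strand: ggcagctcgtccCAGCTGgggctcagctga
Tcf7, chr11:52283156-52283185, minus strand: cgcaccatgccgCAGCTGgactcgggcggg
Id2, chr12:25096271-25096300, minus strand: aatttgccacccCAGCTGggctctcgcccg

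Other words of the E-box family were not searched, and nothing about binding follows from a match. The same 6 letters lie in 16.3% of all 32851 windows, in 16.4% of the 7278 tested genes with a window, in 17 of 87 genes that were higher (19.5%) and in 31 of 132 that were lower (23.5%). The windows of Il21, Pdcd1, Izumo1r, Id3, Tox2, Tnfsf8, Pou2af1, Slamf6, Cd200, Bcl6 and Ascl2 do not hold them. Of lower genes, Tbx21, Ifng and Ly6c2 hold them, and Gzmb and Ccr2 do not.

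Genes through which T cells help B cells showed the clearest gain. Of 10 on the list 8 were tested, of which 5 were higher and none lower (median log2 fold change 1.26). Il21 (ENSMUSG00000027718; chromosome 3, 37222759 to 37232636, minus strand), the cytokine that drives germinal centre B cells, held 65 and 22 UMIs in Cxcr5+ Cxcr6- cells. That is 32.4 and 30.7 CPM, against 6.20 and 8.09 CPM in the other CD4 cells. It was higher in both libraries, which lay close together within each class (log2 fold change 2.23, SE 0.249, adjusted p = 4.66e-05).

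Sostdc1, a secreted antagonist of Wnt and BMP signals made by a subset of Tfh cells, held 258 and 257 CPM against 87.5 and 75.8 CPM (log2 fold change 1.64, SE 0.106, adjusted p = 1.07e-07). Tnfsf8, which encodes CD30 ligand, held 284 and 310 CPM against 156 and 202 CPM (0.77, adjusted p = 0.000143). Sh2d1a encodes SAP, the adaptor that lets T cells hold on to B cells. It held 494 and 405 CPM against 325 and 327 CPM (0.49, adjusted p = 0.00377). No class overlapped the other for these 3.

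Angptl2, a secreted angiopoietin-like protein, held 57.4 and 64.3 CPM against 16.7 and 31.5 CPM (log2 fold change 1.49, adjusted p = 0.00017). Without replicate 1, Angptl2 gave 1.03 (adjusted p = 0.0573) and Sh2d1a 0.31 (0.125). Cd40lg, the ligand for CD40 on B cells, was level at 95.8 and 81.1 CPM against 92.4 and 81.7 CPM (0.03, adjusted p = 0.956). Il4, the class-switch cytokine, was scarce at 9.98 and 2.80 CPM against 4.84 and 1.28 CPM (1.04, adjusted p = 0.386), as was Tnfsf13b, which encodes the B cell survival factor BAFF, at 4.99 and 4.19 CPM against 1.36 and 0 CPM (adjusted p = 0.151). Cxcl13 and Ppp1r14a had too few UMIs to be tested.

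**Figure D2:**
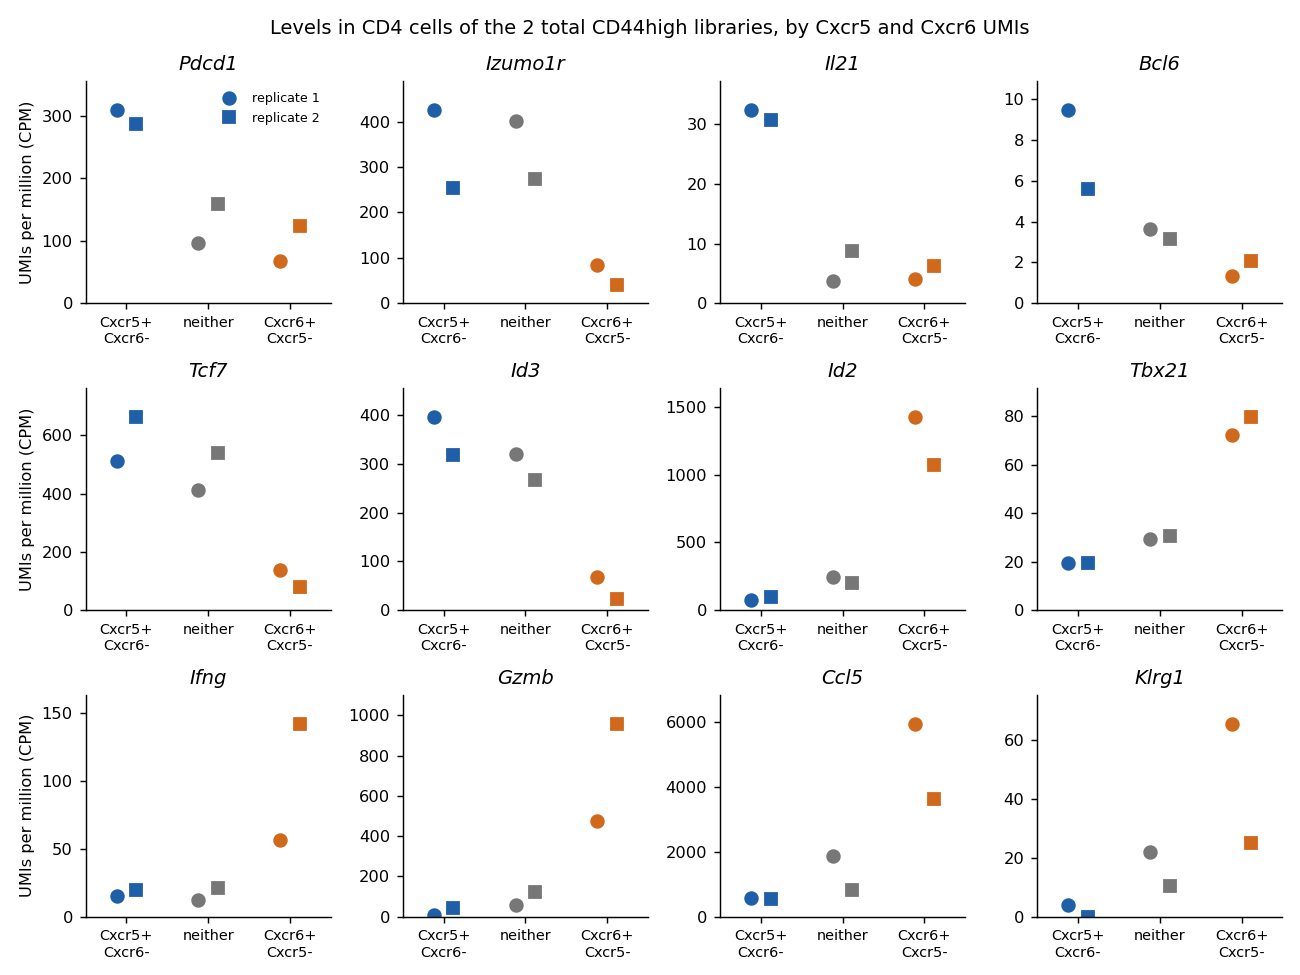
Level of 12 genes (vertical axes, CPM of the class, linear from 0) in CD4 cells of total replicates 1 (circles) and 2 (squares), split by the receptors detected: Cxcr5 alone, neither, or Cxcr6 alone. Il21 and Pdcd1 stand highest in Cxcr5+ Cxcr6- cells, Izumo1r, Tcf7 and Id3 are also high in cells with neither receptor, and Id2, Tbx21, Gzmb and Ccl5 are highest in Cxcr6+ cells.

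Further genes with the largest gains lay outside the lists. Padi4, a peptidylarginine deiminase, held 55.9 and 61.5 CPM in Cxcr5+ Cxcr6- cells against 13.4 and 17.9 CPM in the other CD4 cells (log2 fold change 1.96, adjusted p = 0.000142). Egln3, a prolyl hydroxylase that marks HIF for destruction, held 33.4 and 40.5 CPM against 10.8 and 14.9 CPM (1.56, adjusted p = 0.000386). Coro2b, a coronin, held 28.4 and 18.2 CPM against 7.16 and 8.51 CPM (1.73, adjusted p = 0.00151). All 3 were higher in both libraries with no overlap, but without replicate 1 the adjusted p of Padi4 was 0.0511 and Coro2b gave a log2 fold change of 1.09 (0.35).

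Lpp, an adhesion-site protein, held 67.9 and 88.0 CPM against 32.1 and 32.3 CPM (log2 fold change 1.20, adjusted p = 0.000142). Phactr2, a phosphatase and actin regulator, was also higher (1.31, adjusted p = 0.00518), a call that ended without replicate 1 (0.12). The largest fold of all, that of Hba-a2, a haemoglobin gene, was the single red cell droplet of replicate 1, with 156 and 4.19 CPM against 2.90 and 0.851 CPM. With the mixed droplets left out, 0 of 1 red cell and 0 of 3 myeloid markers tested passed, against 4 of 4 and 2 of 4 with them. Mixed droplets are defined by UMIs of largely these same genes, so their removal set this outcome in advance.

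Th1 and cytotoxic genes were lower wherever they passed. Of 28 Th1 transcription factors and receptors tested, none was higher and 16 were lower (median log2 fold change -1.30), and of 14 cytotoxic and granule genes none was higher and 12 were lower (median -1.49). Id2 (ENSMUSG00000020644; chromosome 12, 25093799 to 25097140, minus strand) restrains E proteins and supports Th1 differentiation. It held 70.3 and 99.2 CPM in Cxcr5+ Cxcr6- cells against 582 and 558 CPM in the other CD4 cells. Both libraries were far apart between the classes (log2 fold change -2.84, SE 0.124, adjusted p = 2.68e-09).

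Gzmb, the granule protease granzyme B, held 7.98 and 41.9 CPM against 174 and 471 CPM (log2 fold change -3.88, SE 0.209, adjusted p = 2.81e-08). The chemokine Ccl5 held 582 and 545 CPM against 2974 and 2008 CPM (-2.14, SE 0.135, adjusted p = 1.04e-07). Empty droplets of these libraries, which carry free RNA, held Gzmb at 830 and 1365 CPM and Ccl5 at 14692 and 9205 CPM. The level in Cxcr5+ Cxcr6- cells was 0.961% and 3.07% of that for Gzmb and 3.96% and 5.92% for Ccl5. How much of the remaining signal was free RNA was not tested.

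Ccr2, an inflammatory chemokine receptor, held 4.99 and 1.40 CPM against 56.2 and 43.4 CPM (-3.71, adjusted p = 5.24e-06). Klrg1, a receptor of terminal effector cells, held 3.99 and 0 CPM against 33.3 and 15.8 CPM (-3.29, adjusted p = 0.000196). The chemokine Ccl4 was near 0 in Cxcr5+ Cxcr6- cells at 0.998 and 4.19 CPM, and in the other CD4 cells it depended on the library, with 5.62 and 350 CPM (-5.65, adjusted p = 2.06e-07). Ccl3 followed it with 3 UMIs and 0 UMIs in Cxcr5+ Cxcr6- cells against 3.48 and 132 CPM, and its call ended without replicate 2 (adjusted p = 0.533).

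Bhlhe40, a stress-responsive repressor that supports Th1 cytokines, held 4.49 and 25.2 CPM against 31.2 and 58.7 CPM (-1.93, adjusted p = 0.000791). The calls of the killer receptor Klrk1 (-2.54, adjusted p = 0.00489) and of the death ligand Fasl (-2.10, adjusted p = 0.0262) ended without replicate 1, at 0.996 and 0.572, and that of Klrg1 missed narrowly at 0.0508. A few defining Th1 genes were added after their values were seen. Tbx21 held 19.5 and 19.6 CPM against 40.5 and 51.5 CPM (-1.16, SE 0.203, adjusted p = 0.00371; 0.0546 without replicate 1). Ifng, the Th1 cytokine, held 15 and 19.6 CPM against 24.6 and 74.5 CPM (-1.22, adjusted p = 0.0106; 0.116 without replicate 2). Selplg, the selectin ligand used to sort Th1 from Tfh cells in this infection, held 249 and 356 CPM against 465 and 592 CPM (-0.82, adjusted p = 2.17e-05), and Ly6c2 104 and 203 CPM against 252 and 571 CPM (-1.37, adjusted p = 5.24e-06).

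Genes of migration gave a smaller and mixed change. Of 23 lymphoid homing and egress genes tested none was higher, 11 were lower and 12 did not pass, 6 of which had a positive log2 fold change (list median -0.33). Lgals1, which encodes galectin 1, held 1238 and 1762 CPM in Cxcr5+ Cxcr6- cells against 2505 and 3751 CPM in the other CD4 cells (-1.04, adjusted p = 8e-08). Lgals3, which encodes galectin 3, held 70.9 and 235 CPM against 302 and 749 CPM (-1.87, adjusted p = 1.04e-07). Anxa1, an annexin of effector cells, held 5.99 and 1.40 CPM against 29.4 and 43.4 CPM (-2.80, adjusted p = 0.000194).

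Il7r, the interleukin 7 receptor of cells that persist, held 19.5 and 14.0 CPM against 119 and 34.9 CPM (-2.39, adjusted p = 8.6e-06), with the larger gap in replicate 1 (-1.32, adjusted p = 0.16 without it). Over all genes tested the median log2 fold change was 0.004.

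Foxp3, the defining factor of regulatory T cells, was rare on both sides and rarer in Cxcr5+ Cxcr6- cells. A Foxp3 UMI was seen in 4 of 352 and 0 of 130 Cxcr5+ Cxcr6- cells, against 35 of 1140 and 7 of 433 other CD4 cells. The count of 0 allows up to 3 of 130 cells with a UMI, which sets no limit on cells that express the gene. The summed level was 2.0 and 0 CPM against 11.4 and 5.11 CPM (log2 fold change -2.72, adjusted p = 0.0253; 0.388 without replicate 1). Of 8 regulatory T genes tested 2 were lower, Foxp3 and Capg, an actin-capping protein (-0.91, adjusted p = 0.00115). Of 5 Th2 and Th17 genes 2 were lower, Gata3, the Th2 factor (-0.71, adjusted p = 0.0125; 0.153 without replicate 1), and Rora, a nuclear receptor of Th17 cells (-0.61, adjusted p = 0.00543; 0.115 without replicate 1).

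Cell cycle genes were lower where they passed, 4 of 20 (median -0.36). The other 16 did not pass, 4 of which had a positive log2 fold change. Rrm2, a subunit of ribonucleotide reductase, held 64.9 and 25.2 CPM in Cxcr5+ Cxcr6- cells against 115 and 146 CPM in the other CD4 cells (-1.25, adjusted p = 0.0111). Pcna, the replication clamp, held 69.9 and 96.4 CPM against 113 and 164 CPM (-0.72, adjusted p = 0.00176). Without replicate 1, 12 of these genes were lower. Of 16 glycolysis genes 3 were higher (median 0.23), among them Pgam1 at 216 and 259 CPM against 146 and 210 CPM (0.46, adjusted p = 0.0128) and Tpi1 at 208 and 301 CPM against 127 and 273 CPM (0.46, adjusted p = 0.0347). Both enzymes lost their call without replicate 1 (adjusted p = 0.254 for Pgam1 and 0.65 for Tpi1).

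Of 11 inhibitory receptors 3 were higher and 1 was lower. Besides Pdcd1 and Cd200, Cd160 was higher, with 60.9 and 50.3 CPM against 35.4 and 35.8 CPM (0.69, adjusted p = 0.0304; 0.515 without replicate 1), and Lair1, a collagen receptor, was lower (-1.79, adjusted p = 0.0337; 0.206 without replicate 1). Interferon response genes were mixed, with 1 of 19 higher and 2 lower, among them Ifitm1 with 0 and 60.1 CPM against 55.0 and 162 CPM (-2.40, adjusted p = 0.00364).

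Of 18 genes of recent T cell receptor signalling 1 was lower, the phosphatase Dusp5 (-1.41, adjusted p = 0.00495), and 1 of 12 dissociation stress genes was lower. None of 13 apoptosis regulators, of 2 NK markers and of 1 plasma cell marker passed, and no gamma-delta T marker could be tested. Of 8 B cell markers 1 was higher, Cd22, with 25.4 and 8.39 CPM against 10.3 and 4.26 CPM (1.25, adjusted p = 0.0217; 0.619 without replicate 1).

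**Figure D3:**
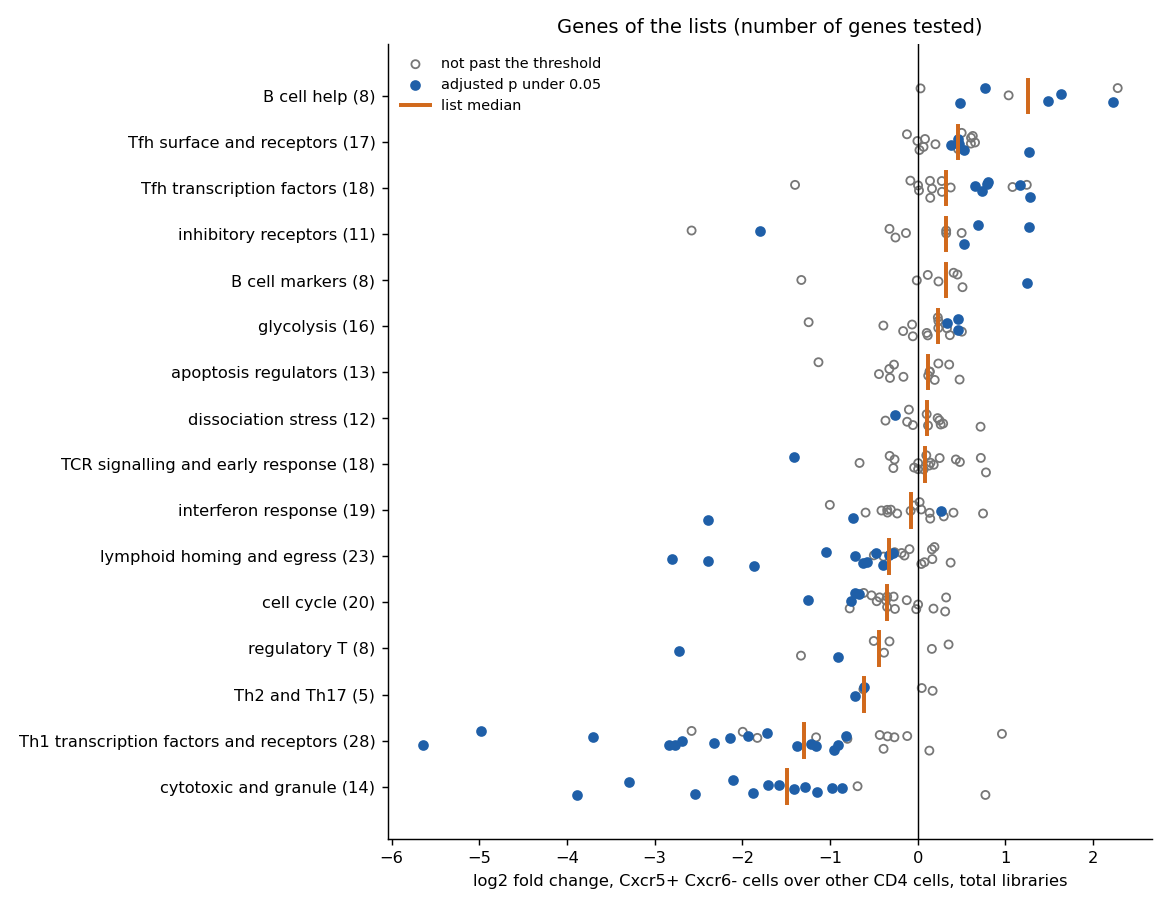
Log2 fold change of Cxcr5+ Cxcr6- cells over the other CD4 cells of the total libraries (horizontal axis) for each tested gene of the 16 lists with at least 5 genes tested; filled points passed an adjusted p of 0.05 and bars mark the list median. Among these lists B cell help has the highest median at 1.26, and the Th1 and cytotoxic lists the lowest at -1.30 and -1.49.

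The other CD4 cells are a mixture, so Cxcr5+ Cxcr6- cells were also set against the cells with Cxcr6 and without Cxcr5 alone, 277 and 147 cells of the same libraries. Differences were wider, with 659 genes higher (7.22%) and 716 lower (7.84%) of 9133 tested with edgeR, and with no overlap across the libraries in 22.1% (higher) and 24.4% (lower) of all genes. Tfh surface genes were higher in 10 of 17 (median log2 fold change 1.14), Tfh transcription factors in 10 of 18 (0.89) and B cell help genes in 5 of 7 (2.35). Th1 genes were lower in 23 of 28 (-2.25) and cytotoxic genes in 12 of 13 (-2.22), with Crtam, an adhesion molecule of cytotoxic CD4 cells, higher (1.86, adjusted p = 0.00727; named after its value was seen). The median over all genes tested was 0.02.

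Id3 held 397 and 319 CPM in Cxcr5+ Cxcr6- cells against 66.8 and 21.8 CPM in Cxcr6+ cells (log2 fold change 2.95, adjusted p = 2.55e-10), while Id2 held 70.3 and 99.2 CPM against 1429 and 1075 CPM (-3.99, adjusted p = 1.27e-13). The 2 inhibitors thus stood in opposite order in the 2 classes. Tcf7 held 512 and 664 CPM against 137 and 79.8 CPM (2.37, adjusted p = 2.35e-08).

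Izumo1r, which barely told the members from all other CD4 cells, differed strongly here, with 426 and 254 CPM against 84.8 and 40.4 CPM (2.45, SE 0.206, adjusted p = 3.42e-08). Cells with neither receptor held it at 402 and 274 CPM, about the level of Cxcr5+ Cxcr6- cells. The same held for Slamf6, with 580 and 727 CPM in Cxcr5+ Cxcr6- cells, 606 and 597 CPM in cells with neither receptor and 232 and 176 CPM in Cxcr6+ cells (1.66 over Cxcr6+ cells). Il21 and Sostdc1 differed from this pattern. Sostdc1 held 258 and 257 CPM in Cxcr5+ Cxcr6- cells, 79.6 and 105 CPM in cells with neither receptor and 25.4 and 4.15 CPM in Cxcr6+ cells (3.95 over Cxcr6+ cells, adjusted p = 1.65e-08). Il21 held 32.4 and 30.7 CPM, then 3.66 and 8.67 CPM, and 4.0 and 6.22 CPM in Cxcr6+ cells (2.76, adjusted p = 2.66e-05). Levels in cells with neither receptor are a description, with no test.

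Receptors that steer cells also parted the classes. Ccr7, the receptor for the T cell zone, held 120 and 159 CPM in Cxcr5+ Cxcr6- cells against 24.7 and 17.6 CPM in Cxcr6+ cells (2.64, adjusted p = 3.63e-08), a gene added after its values were seen. This gap was not particular to Cxcr5+ cells. Unthinned, a Ccr7 UMI was seen in 29.8% and 29.2% of Cxcr5+ Cxcr6- cells and in 24.8% and 27.0% of the other CD4 cells. In replicate 1 Ccr7 held 157, 107 and 31.0 CPM at 1, 2 and at least 3 Cxcr5 UMIs, and 146 CPM in cells with neither receptor. Il6ra, the interleukin 6 receptor, held 77.3 and 64.3 CPM against 16.0 and 6.22 CPM (2.58, adjusted p = 6.17e-07). Cx3cr1, the fractalkine receptor of effector cells, held 1.5 and 0 CPM against 51.4 and 14.5 CPM. Ccr9, a gut-homing receptor, held 1 UMI and 0 UMIs against 32.7 and 12.4 CPM, and Ccr2 had a log2 fold change of -5.08. Apart from Crtam, for which it was not computed, no gene named for this comparison lost its call when a library was left out, though the counts were 344 and 419 without replicate 1, and 334 and 422 without replicate 2.

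The next comparison asked whether the step from the other CD4 cells to Cxcr5+ Cxcr6- cells was as large in activated cells of any specificity as in GP66+ cells. In the difference of the 2 steps, tested in the same edgeR fit, 0 genes were larger (0%) and 1 was smaller (0.0105%) of 9497, and at an unadjusted p under 0.05 there were 175 and 195. DESeq2 also called 0 and 1. The ratios within libraries did not overlap in 17.5% (total above GP66+) and 15.1% (below) of all genes. Without replicate 2 edgeR called 32 and 27, and without replicate 1 it called 5 and 10. The gene called was Id2.

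Id2 held 70.3 and 99.2 CPM in Cxcr5+ Cxcr6- cells against 582 and 558 CPM in the other CD4 cells of the total libraries. In the GP66+ libraries it held 85.1 and 120 CPM against 231 and 292 CPM. Levels in Cxcr5+ Cxcr6- cells thus lay near each other in both kinds of library, and the other CD4 cells of the total libraries held about 2-fold more (difference of log2 fold changes -1.50, SE 0.169, adjusted p = 0.00189). Free RNA moved with this gene, since empty droplets held Id2 at 813 and 893 CPM in the total libraries and 184 and 323 CPM in the GP66+ ones; its part was not tested. The call ended with cells thinned to 2000 UMIs (-0.96, adjusted p = 0.891) and with members of at least 2 Cxcr5 UMIs (-1.41, adjusted p = 0.0652).

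Pdcd1 and Il21 did not pass, with differences of 0.85 (adjusted p = 0.355) and 1.45 (adjusted p = 0.355). For Gzmb the difference was 2.29 (adjusted p = 0.447) and for Lgals1 -0.37 (adjusted p = 0.645). Without total replicate 2 the differences were 1.07 for Pdcd1, 1.60 for Il21 and -0.35 for Lgals1. Without replicate 1 Lgals1 gave -0.41, and without the wild type GP66+ library Gzmb gave 4.17. Each of these fits keeps a single library of one kind, which shows no spread of its own. The steps in total and in GP66+ cells share no libraries, and each library's own ratios are shown in the plot of ratios within libraries.

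**Figure D4:**
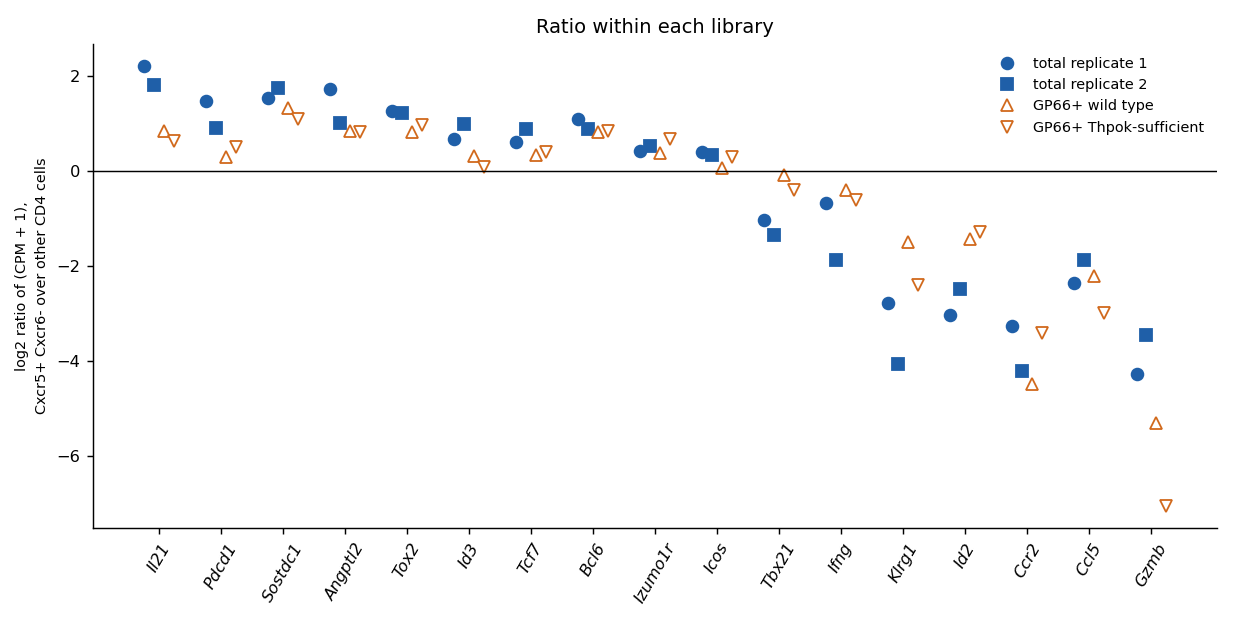
Log2 ratio of (CPM + 1) in Cxcr5+ Cxcr6- cells over the other CD4 cells (vertical axis) within each library for 17 genes; filled points are total, open points GP66+ libraries. Il21, Pdcd1 and Tox2 are above 0 and Id2, Ccr2, Ccl5 and Gzmb below 0 in each of the 4 libraries, and Id2 lies lower in both total libraries.

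Cxcr5+ Cxcr6- cells of the total libraries were finally set against those of the GP66+ libraries, a comparison between libraries with no block. Few Tfh genes passed, in a fit that called few genes of any kind. Of 17 Tfh surface genes tested none passed in either direction, of 16 transcription factors 1 was higher, Id3, and of 7 B cell help genes none passed. Il21 had a log2 fold change of -0.35 (adjusted p = 0.792) and Izumo1r of 0.28 (adjusted p = 0.788). Over all 8618 genes 4 were higher (0.0464%) and 37 lower (0.429%) with edgeR, and 24% and 15.8% did not overlap between the kinds of library.

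Among the lower genes were those that answer quickly to stimulation or to handling. Of 18 genes of T cell receptor signalling and early response 6 were lower and none higher (median log2 fold change -2.13), and of 11 dissociation stress genes 4 were lower and none higher (-2.83), against a median of -0.002 over all genes. Empty droplets moved the same way, the 20 genes of the first list summing to 674 and 953 CPM in the total against 2848 and 4164 CPM in the GP66+ libraries; the part of free RNA was not tested. Nr4a1, which encodes the orphan nuclear receptor Nur77, held 9.98 and 5.59 CPM in Cxcr5+ Cxcr6- cells of the total libraries against 173 and 198 CPM in those of the GP66+ libraries (-4.47, SE 0.290, adjusted p = 0.00641). The other CD4 cells showed the same gap, with 11.4 and 20.4 CPM against 230 and 242 CPM, so it was not confined to Cxcr5+ Cxcr6- cells.

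Its relative Nr4a2 held 2.0 and 5.59 CPM against 154 and 119 CPM (-5.50, adjusted p = 0.00641). Tnfaip3, the brake on NF-kB known as A20, held 9.48 and 14.0 CPM against 152 and 157 CPM (-3.86, adjusted p = 0.00641). Dusp1, a stress-induced phosphatase, held 6.99 and 11.2 CPM against 140 and 208 CPM (-4.43, adjusted p = 0.00911). All 3 were low in both total libraries and high in both GP66+ libraries, as were Fos (-4.44, adjusted p = 0.0475), a subunit of AP-1, and Areg, a growth factor, with 1.5 and 0 CPM against 35.7 and 42.0 CPM (adjusted p = 0.0213). Tetramer staining, the CD8+ cells joined to the total libraries, library and specificity cannot be told apart in this comparison. The GP66+ libraries, used here as replicates, also differed in genotype and in the reporter gate.

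Id3 was the Tfh-associated gene that passed, with 397 and 319 CPM in the total against 73.2 and 89.2 CPM in the GP66+ libraries (2.09, SE 0.220, adjusted p = 0.0213). Ccl5 held 582 and 545 CPM against 178 and 135 CPM (1.79, adjusted p = 0.0144), and Gzma, a granzyme, 38.4 and 41.9 CPM against 8.33 and 4.76 CPM (2.52, adjusted p = 0.0358). Empty droplets moved with both, holding Ccl5 at 14692 and 9205 CPM in the total against 658 and 1131 CPM in the GP66+ libraries, and Gzma at 3109 and 1799 CPM against 12.3 and 29.4 CPM; the part of free RNA was not tested. Pdcd1 held 310 and 288 CPM against 140 and 140 CPM and missed the threshold (1.04, adjusted p = 0.0671). Without the Thpok-sufficient library its log2 fold change was 1.11.

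Most calls between libraries ended when a total library was left out, while the folds stayed large. Without total replicate 1 edgeR called 0 genes in either direction, with log2 fold changes of -5.15 for Nr4a1, -4.70 for Nr4a2, -3.57 for Tnfaip3, -4.08 for Dusp1, 1.86 for Id3 and 1.69 for Ccl5. The adjusted p was then 0.299 for Nr4a1, Nr4a2 and Tnfaip3, 0.553 for Id3, 0.459 for Ccl5 and Areg, 0.562 for Dusp1 and 0.65 for Gzma and Fos. Without replicate 2 it called 10 and 11, and Id3 (0.115), Ccl5 (0.111), Gzma (0.242), Dusp1 (0.129), Areg (0.115) and Fos (0.242) did not pass. Without the Thpok-sufficient GP66+ library 198 and 180 passed.

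**Figure D5:**
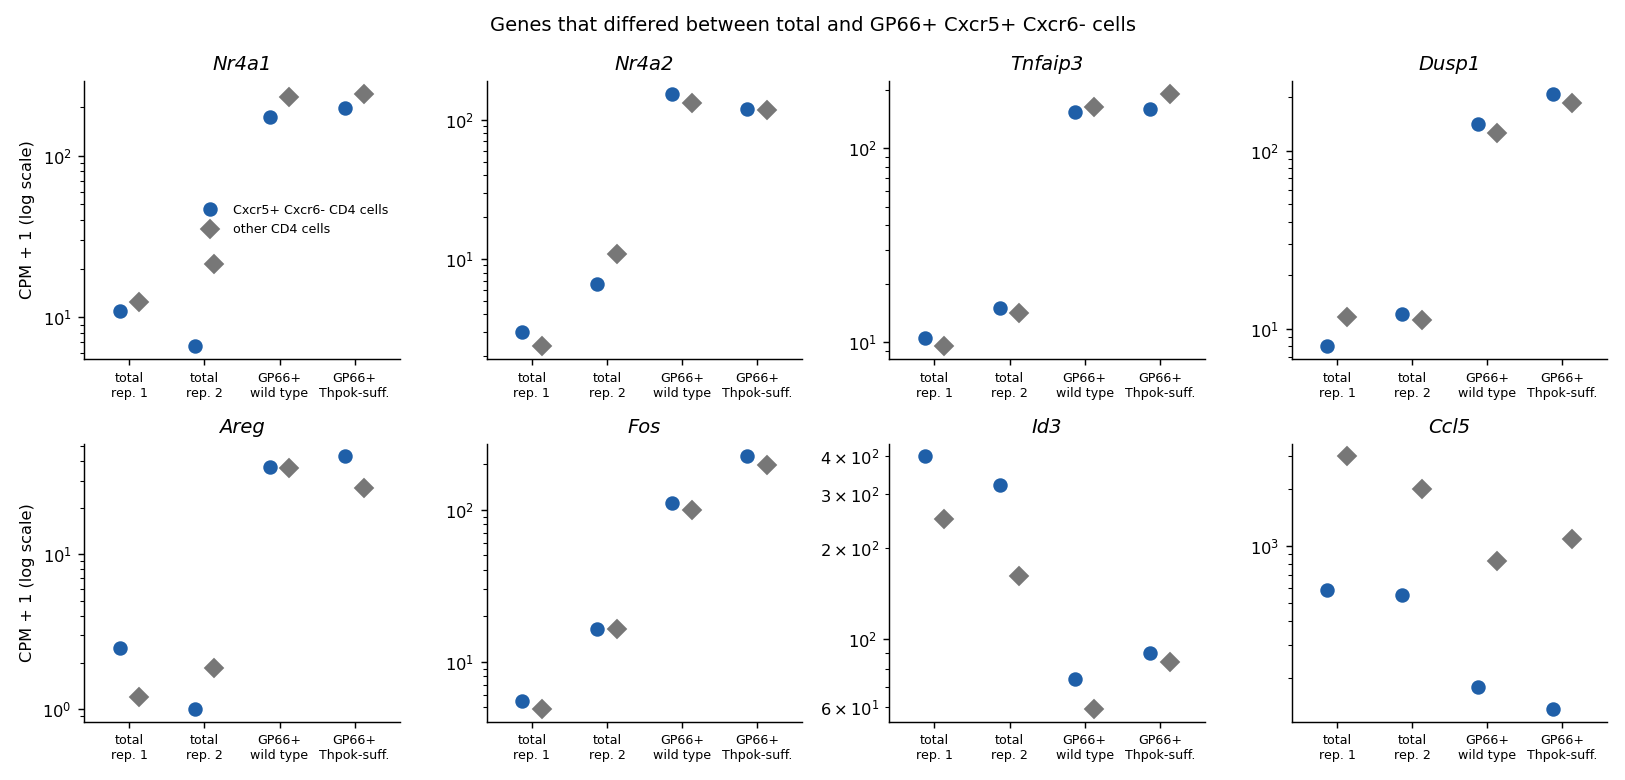
Level of 8 genes (vertical axes, CPM + 1 on a log scale) in Cxcr5+ Cxcr6- cells (circles) and the other CD4 cells (diamonds) of the 2 total and 2 GP66+ libraries of day 7. Nr4a1, Nr4a2, Tnfaip3, Dusp1, Areg and Fos are low in both classes of the total libraries and high in both classes of the GP66+ libraries, and Id3 and Ccl5 run the other way.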

How the data were processed

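Single cell RNA was captured, per the labels' protocols, with 10x Genomics 3' reagents, version 2. The authors deposited UMI counts per gene and barcode, whole numbers with empty droplets included, as the files show; the submitters' processing notes name bcl2fastq 2.17, Cell Ranger (no version given) and mm10. No doublet caller was run; mixed droplets were left out as an alternative chosen after seeing the data, as cells with at least 10 UMIs of red cell, myeloid or B cell genes.

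The members, the 21 gene lists and the tests were chosen with earlier results of these data known. UMI sums of each class in each library went into edgeR 4.0.16 in R 4.3.3 (quasi-likelihood, TMM, filterByExpr, Benjamini-Hochberg at 0.05) in 1 fit of the 2 total and the 2 GP66+ libraries of day 7, with the library as block. That block is the pairing: the classes compared share a capture. Residual degrees of freedom were 2 (4 with the Cxcr6+ class kept apart, 2 between libraries). edgeR also drew each gene's spread towards a trend over all genes. That added a median of 13.4 prior degrees of freedom (16.3 with the Cxcr6+ class kept apart, 4.53 between libraries). A standard error was taken as |log2 fold change| divided by the square root of F. CPM are shares of the class total, without TMM. Named were the tested genes of the 3 Tfh lists, 2 to 4 per other list by size of change, and up to 12 per direction (8 in the GP66+ comparisons) with the largest changes past the threshold, at least 20 CPM and no overlap. Where fewer than 5 passed, others were named as not passing. Values of some genes that fall under this rule are not reported here. Shares used scipy 1.17.1 (exact binomial 95% intervals). Alternatives were DESeq2 1.42.0, its size factors, no filter, each library left out, the total libraries alone, no block, other cell filters, and cells thinned to 2000 UMIs. The tests were tested on simulated data. Coordinates come from GENCODE vM21 on GRCm38.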

Additional observations from a re-analysis of the deposited data

Results flagged for a closer look

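Id2 is listed because its effect differed between groups. Its log2 fold change of Cxcr5+ Cxcr6- over the other CD4 cells was lower in the total than in the GP66+ libraries (difference -1.50, SE 0.169, edgeR adjusted p = 0.00189), the test being that of the difference itself. It kept its sign with each library left out, and the call ended with no replicate block (-1.44, adjusted p of 1).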

How the results depend on the processing

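Over 17 settings, 1802 values of single genes kept their direction and side of the threshold in 1551 cases, ended their call in 210, gained one in 37 and reversed in 4. Ascl2 (-0.19), Maf (-0.26) and the myeloid gene Lyz2 (-1.58) reversed without total replicate 1 (1.35, 0.63 and 2.73 without total replicate 2), and Lyz2 (-0.20) without mixed droplets. Lyz2 is among the genes that define mixed droplets, and the cause of the reversals was not tested. Counts are given as higher and lower. Leaving out 1 library each gave 84 to 244 and 144 to 315 against the other CD4 cells, 334 to 533 and 419 to 602 against Cxcr6+ cells, 1 to 32 and 2 to 27 for the difference between total and GP66+ libraries, and 0 to 198 and 0 to 180 between their Cxcr5+ Cxcr6- cells. With DESeq2 the counts were 23 and 51 against the other CD4 cells, 273 and 350 against Cxcr6+ cells, and 9 and 69 between libraries. Thinning to 2000 UMIs gave 11 and 30, then 104 and 111, no smaller difference (0), and 1 and 9. Without the filter on low counts 298 were lower than in the other CD4 cells, 10 and 4 differed in their step, and 114 and 222 between libraries. The total libraries alone gave 61 and 116. Without the replicate block that pairs the classes of a library the counts were 0 and 3 against the other CD4 cells, 163 and 226 against Cxcr6+ cells, and 0 smaller differences. Without cells holding a B cell marker UMI 1 difference was larger. Requiring 2 Cxcr5 UMIs gave 0 smaller differences, and 0 and 21 between libraries. The share of Cxcr5+ Cxcr6- cells was 13.6% and 12.1% in thinned cells. With 2 Cxcr5 UMIs required it was 11.4% (142 of 1244) and 8.30% (38 of 458). That setting also drops cells with exactly 1 Cxcr5 UMI from the CD4 cells, so the whole differs from that of the main shares. Izumo1r was seen in 29.3% and 20% of them thinned to 1000 UMIs and 62.5% and 43.1% unthinned, and in 22.9% and 15.5% or 41.9% and 31.4% of the other CD4 cells. Il21 was seen unthinned in 12.2% of replicate 1, and in 2.02% and 3.46% of the other CD4 cells (0.351% in replicate 1 thinned to 1000). Of 289 genes called against the other CD4 cells, 108 were also called without replicate 1, 270 without replicate 2, 74 by DESeq2 and 40 after thinning. Low counts limit genes such as Bcl6, Il4 and S1pr2. The tests rest on 2 residual degrees of freedom (4 against Cxcr6+ cells, 1 with a library left out in the other comparisons) and on spread borrowed across genes.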
